A study of Mus musculus with 12 samples.

Results

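The smooth muscle contractile genes followed here are Acta2, Actg2, Cnn1, Tagln, Myh11, Tpm1, Tpm2, Lmod1, Myl9 and Mylk, 10 genes named for their role and looked up by symbol in the annotation of the array's probe sets. All 10 were measured, each by 1 probe set with a single symbol, among 22180 genes in all. Levels are log2 values, so a difference of 1 is a 2-fold change in signal.

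All groups were mouse embryonic fibroblasts, mesenchymal cells cultured from embryos in medium with serum, and were either Gdap1-null (KO) or wild type (WT). The product of Gdap1 sits in the mitochondrial outer membrane. The 12 arrays formed 4 groups of 3: KO cells at day 4 after introduction of Oct4, Sox2, Klf4 and c-Myc (the 4 reprogramming factors), KO cells, sampled before reprogramming and called day 0, and the WT cells of day 4 and of day 0. The labels do not give the allele, strain or number of embryos, and one treatment text for all arrays mentions both mock and factor transduction, so a day 4 change holds reprogramming, transduction and time in culture together.

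Smooth muscle contracts when myosin filaments pull on actin filaments, and the pull is switched on by phosphorylation of the myosin regulatory light chain. Genes of this apparatus are commonly controlled by serum response factor (SRF), which binds a DNA element named the CArG box with the help of myocardin or of the myocardin-related factors, whereas KLF4 is known to repress many of them in smooth muscle cells. Fibroblasts grown on stiff plastic in serum often carry part of this set in stress fibres, as myofibroblasts do.

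The median level of the genes on an array ran from 5.22 to 5.32. Gdap1 gave 3.21, 2.98 and 3.28 in KO day 4 arrays, against 3.10, 2.97 and 3.28 in KO day 0 arrays. Its WT levels were 2.82, 3.02 and 3.15 in day 4 arrays, against 3.30, 3.24 and 3.04 in day 0 arrays, which overlaps the KO values. Only 14.1% of genes had a lower mean level, so this probe set checks nothing about the genotype. WT day 4 array 1 received the lowest array weight, 0.31, against 0.59 to 1.76 for the others. Of 10 fibroblast markers, 0 had a mean level under 3.75, the 25th percentile of all genes. The same was true of 6 cardiomyocyte, 6 endothelial and 7 macrophage markers, and 1 of 8 pericyte and 1 of 8 skeletal myoblast markers lay under it. This level therefore does not tell cell types apart. No label says whether the arrays of a group were separate cultures or animals, so p-values measure only the spread between these samples, which may be technical. With no batch named in the labels, group and batch cannot be told apart.

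The promoter stretches below are shown because the genes moved together and because the CArG box is the element that SRF binds. RefSeq promoters of GRCm38.p6, from 250 bases before to 50 after a start site, were on hand for 7 of the 10 genes. Those of Actg2, Tagln and Myh11 were not on hand and were not searched. The stretches shown, from 5 of the 7 genes, lie before the start site. Capitals mark, in Acta2, Tpm1, Lmod1 and Myl9, the CArG box, a CArG box with 1 G or C among its 6 central bases, or the MCAT element (CATTCC or its reverse complement), which TEAD factors bind. In Cnn1, where none of these was found, capitals mark CACCC, a core recognised by Krüppel-like factors, or its reverse complement.
Acta2, chr19:34255383-34255534, minus strand: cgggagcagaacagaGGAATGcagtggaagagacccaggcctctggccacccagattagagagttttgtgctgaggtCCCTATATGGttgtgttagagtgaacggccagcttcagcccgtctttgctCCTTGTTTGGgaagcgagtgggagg
Myl9, chr2:156775288-156775389, plus strand: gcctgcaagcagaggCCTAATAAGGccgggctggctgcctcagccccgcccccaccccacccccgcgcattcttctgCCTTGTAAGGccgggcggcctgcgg
Lmod1, chr1:135324668-135324703, plus strand: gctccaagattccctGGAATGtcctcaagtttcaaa
Tpm1, chr9:67049249-67049284, minus strand: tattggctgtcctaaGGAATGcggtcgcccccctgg
Cnn1, chr9:22099022-22099195, plus strand: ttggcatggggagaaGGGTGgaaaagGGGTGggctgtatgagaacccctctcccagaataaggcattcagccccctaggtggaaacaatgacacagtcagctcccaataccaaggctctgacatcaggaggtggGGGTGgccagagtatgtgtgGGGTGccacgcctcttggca

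The CArG box itself was found in 1 of the 7 promoters, that of Myl9, with its first base at -161 from the start site, and in 1.63% of 32851 promoters of the same length. The form with 1 G or C in the centre, searched for after the first result was seen, was in 2 of 7, with first bases at -84 and -34 in Acta2 and at -99 in Myl9, and in 8.5% of all promoters. MCAT elements were found on either strand in 4 of 7 and in 14.7% of all promoters, and CACCC in 5 of 7 and 57.5%. Matches of different kinds did not overlap. The promoter of Tpm2 held a CACCC and no match of the other kinds. A match describes letters in this window, and binding was not measured.

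By day 4 the contractile genes were lower in both genotypes, with Cnn1 at the head. In KO cells 9 of the 10 fell, all but Mylk, against 16.9% of all genes, and 8 of the 10 fell at least 2-fold, against 1.38% of all genes. In WT cells all 10 fell, against 11.7% of all genes, and 9 fell at least 2-fold, against 1.61%. The median change was -1.33 in KO cells and -2.38 in WT cells, where the median of all genes was -0.01 in each. The day 4 and day 0 arrays did not overlap for 9 of 10 genes in KO cells and for 10 of 10 in WT cells, beside 24.8% and 18.9% of all genes that were lower without overlap. In bulk RNA, fewer contractile cells and less RNA per cell cannot be told apart.

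**Figure D1:**
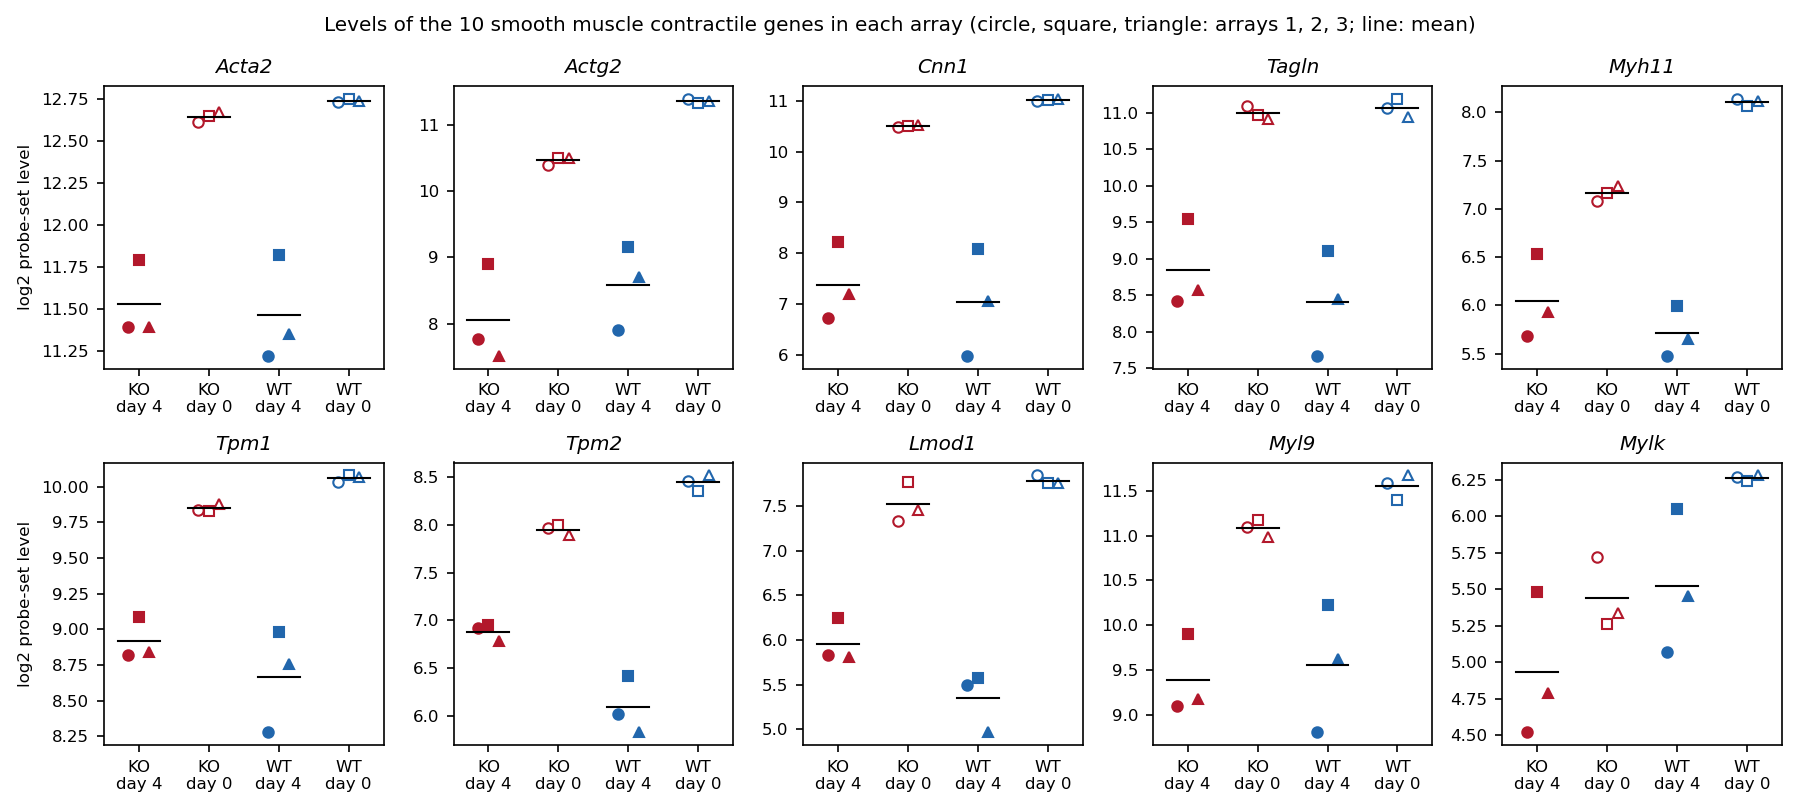
Log2 probe-set level (vertical axis) of each of the 10 genes in each array, with KO groups in red, WT groups in blue, day 4 filled and day 0 open, arrays 1, 2 and 3 as circle, square and triangle, and a line at the group mean. Day 4 arrays sit under the day 0 arrays of the same genotype in every panel except KO Mylk, and vertical scales differ between panels.

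The actins form the thin filaments. Acta2, smooth muscle alpha-actin and the usual marker of myofibroblasts, gave 11.39, 11.79 and 11.39 in KO day 4 arrays, against 12.61, 12.65 and 12.67 in KO day 0 arrays. In WT cells Acta2 gave 11.22, 11.82 and 11.35 at day 4, against 12.73, 12.75 and 12.74 at day 0. Every day 4 array was below every day 0 array in both genotypes, by at least 0.81 in KO and 0.92 in WT cells. Acta2 thus fell by 1.11 ± 0.14 on the log2 scale in KO cells (SE, n = 3 per group, 2.17-fold, adjusted p = 6.88e-05) and fell by 1.28 ± 0.14 in WT cells (2.43-fold, adjusted p = 3.11e-05).

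Actg2, the gamma-actin of enteric smooth muscle, gave 7.77, 8.90 and 7.52 in KO day 4 arrays, against 10.40, 10.50 and 10.50 in KO day 0 arrays. WT day 4 arrays held 7.91, 9.15 and 8.70, against 11.39, 11.32 and 11.35 in WT day 0 arrays. The groups did not overlap, and array 2 was the highest at day 4 in either genotype. Actg2 fell by 2.41 ± 0.32 in KO cells (SE, n = 3 per group, 5.31-fold, adjusted p = 0.0001) and fell by 2.77 ± 0.32 in WT cells (6.83-fold, adjusted p = 4.52e-05), the tenth lowest change among all genes in both.

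Calponin and transgelin bind actin filaments. Cnn1, which encodes the smooth muscle calponin that restrains actomyosin activity, gave 6.73, 8.21 and 7.20 in KO day 4 arrays, against 10.49, 10.50 and 10.53 in KO day 0 arrays. In WT cells the Cnn1 levels were 5.98, 8.08 and 7.05 at day 4, against 11.00, 11.02 and 11.04 at day 0. Day 0 arrays agreed within 0.04 in each genotype, whereas the day 4 arrays spanned 1.47 in KO and 2.10 in WT cells. Even so, the gap between the nearest day 4 and day 0 arrays was 2.28 in KO and 2.91 in WT cells. The change of Cnn1, -3.13 ± 0.43 in KO cells (SE, n = 3 per group, 8.73-fold, adjusted p = 0.00012) and -3.98 ± 0.43 in WT cells (15.8-fold, adjusted p = 2.5e-05), was the lowest of all 22180 genes in each genotype.

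Tagln, which encodes transgelin (SM22), an early marker of smooth muscle differentiation, gave 8.42, 9.54 and 8.57 in KO day 4 arrays, against 11.09, 10.97 and 10.91 in KO day 0 arrays. Its WT levels were 7.67, 9.11 and 8.45 in day 4 arrays, against 11.07, 11.19 and 10.94 at day 0. No day 4 array reached a day 0 array, and the day 0 levels of the genotypes overlapped. Tagln fell by 2.15 ± 0.32 in KO cells (SE, n = 3 per group, 4.42-fold, adjusted p = 0.000223) and fell by 2.66 ± 0.32 in WT cells (6.3-fold, adjusted p = 5.75e-05).

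**Figure D2:**
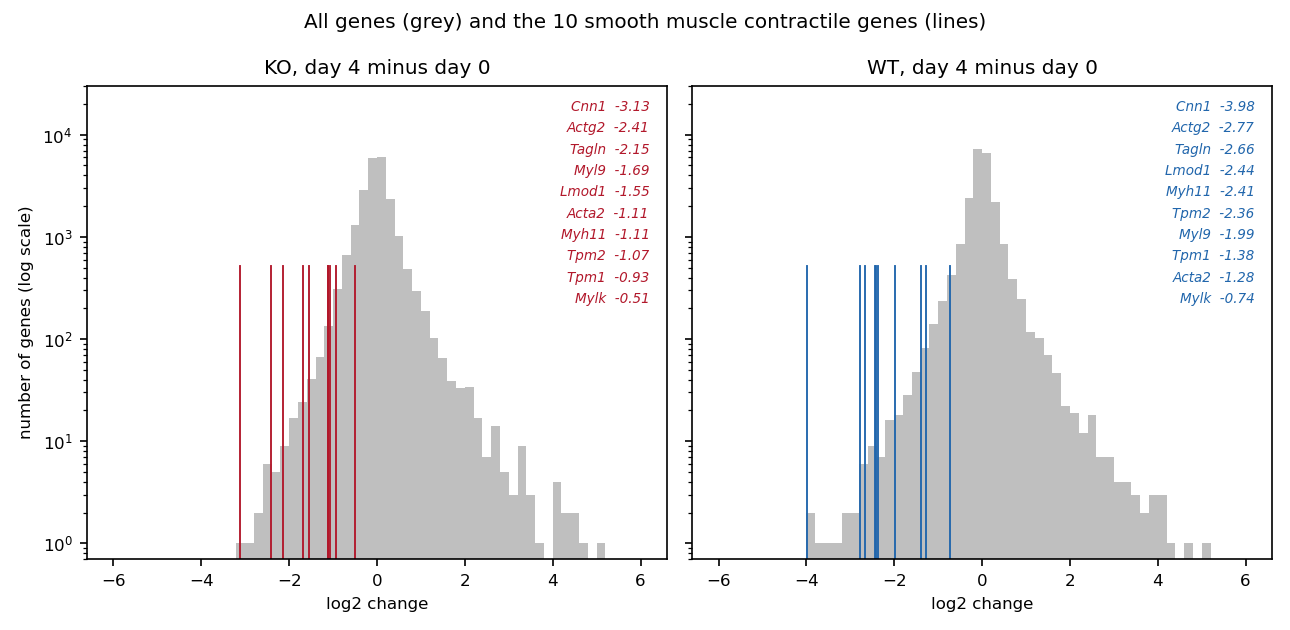
Number of genes (vertical axis, log scale) by log2 change from day 0 to day 4 (horizontal axis) for KO cells on the left and WT cells on the right, with the 10 contractile genes as lines and their changes printed. Cnn1 lies at the left end of both distributions, at -3.13 in KO and -3.98 in WT cells, and Mylk lies nearest to 0.

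Myosin and its regulators make up the motor. Myh11, the smooth muscle myosin heavy chain and a marker of mature smooth muscle, gave 5.68, 6.53 and 5.93 in KO day 4 arrays, against 7.08, 7.16 and 7.24 in KO day 0 arrays. In WT cells its levels were 5.48, 5.99 and 5.65 at day 4, against 8.14, 8.07 and 8.12 at day 0. The genotypes overlapped at day 4 and were apart at day 0, where WT was higher. Myh11 fell by 1.11 ± 0.18 in KO cells (SE, n = 3 per group, 2.16-fold, adjusted p = 0.000396) and fell by 2.41 ± 0.18 in WT cells (5.3-fold, adjusted p = 1.56e-06).

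Myl9, the regulatory light chain whose phosphorylation starts contraction, gave 9.10, 9.90 and 9.18 in KO day 4 arrays, against 11.09, 11.17 and 10.98 in KO day 0 arrays. WT arrays gave 8.81, 10.23 and 9.63 at day 4, against 11.58, 11.39 and 11.67 at day 0. The days did not overlap in either genotype, with gaps of 1.09 in KO and 1.16 in WT cells. Myl9 fell by 1.69 ± 0.28 in KO cells (SE, n = 3 per group, 3.23-fold, adjusted p = 0.000573) and fell by 1.99 ± 0.28 in WT cells (3.98-fold, adjusted p = 0.000225).

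Mylk, the kinase that phosphorylates this light chain, had the change nearest 0 of the 10 genes in both genotypes. Its levels were 4.52, 5.48 and 4.79 in KO day 4 arrays, against 5.72, 5.26 and 5.34 in KO day 0 arrays. In WT cells Mylk gave 5.07, 6.05 and 5.45 at day 4, against 6.27, 6.24 and 6.28 at day 0. In KO cells day 4 array 2 lay inside the day 0 range, and in WT cells it came within 0.19 of the day 0 arrays. The change of Mylk was -0.51 ± 0.25 in KO cells (SE, n = 3 per group, 95% interval -1.05 to 0.03, adjusted p = 0.148) and -0.74 ± 0.25 in WT cells (1.67-fold, adjusted p = 0.0482). With all arrays the WT call was lost under a trended and robust prior (adjusted p = 0.0642) and with array weights (0.0656). It also ended on omission of array 1 of WT day 4 (adjusted p = 0.164), of array 3 of that group (0.121), or of any 1 WT day 0 array (0.107 to 0.112). Omission of KO arrays, which enter the shared spread, ended it too: KO day 0 array 1 (0.0525), 2 (0.0596) or 3 (0.0629) and KO day 4 array 3 (0.0592). In KO cells the fall of Mylk passed without KO day 4 array 2 (-0.78, adjusted p = 0.0211).

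Tropomyosins lie along the actin filament, and leiomodin starts new filaments. Tpm1 gave 8.82, 9.09 and 8.84 in KO day 4 arrays, against 9.84, 9.83 and 9.88 in KO day 0 arrays. In WT cells Tpm1 gave 8.28, 8.98 and 8.76 at day 4, against 10.03, 10.08 and 10.07 at day 0. The groups were apart in both genotypes, and Tpm1 fell by 0.93 ± 0.14 in KO cells (SE, n = 3 per group, 1.91-fold, adjusted p = 0.000253) and fell by 1.38 ± 0.14 in WT cells (2.61-fold, adjusted p = 1.64e-05).

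Tpm2, the beta-tropomyosin, gave 6.92, 6.95 and 6.78 in KO day 4 arrays, against 7.97, 8.0 and 7.89 in KO day 0 arrays. Its WT levels were 6.02, 6.42 and 5.83 in day 4 arrays, against 8.46, 8.36 and 8.52 at day 0. The 4 groups did not overlap at all: WT day 0 was highest, KO day 0 next, then KO day 4, and WT day 4 lowest. Tpm2 fell by 1.07 ± 0.12 in KO cells (SE, n = 3 per group, 2.1-fold, adjusted p = 3.48e-05) and fell by 2.36 ± 0.12 in WT cells (5.12-fold, adjusted p = 8.96e-08), the smallest p of the 10 genes in WT cells.

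Lmod1, the leiomodin of smooth muscle, gave 5.83, 6.25 and 5.81 in KO day 4 arrays, against 7.33, 7.77 and 7.45 in KO day 0 arrays. Its WT levels were 5.50, 5.57 and 4.97 at day 4, against 7.84, 7.75 and 7.75 at day 0. At day 4 the KO arrays were all above the WT arrays, and at day 0 the genotypes overlapped through KO array 2. Lmod1 fell by 1.55 ± 0.17 in KO cells (SE, n = 3 per group, 2.93-fold, adjusted p = 2.02e-05) and fell by 2.44 ± 0.17 in WT cells (5.41-fold, adjusted p = 9.21e-07).

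**Figure D3:**
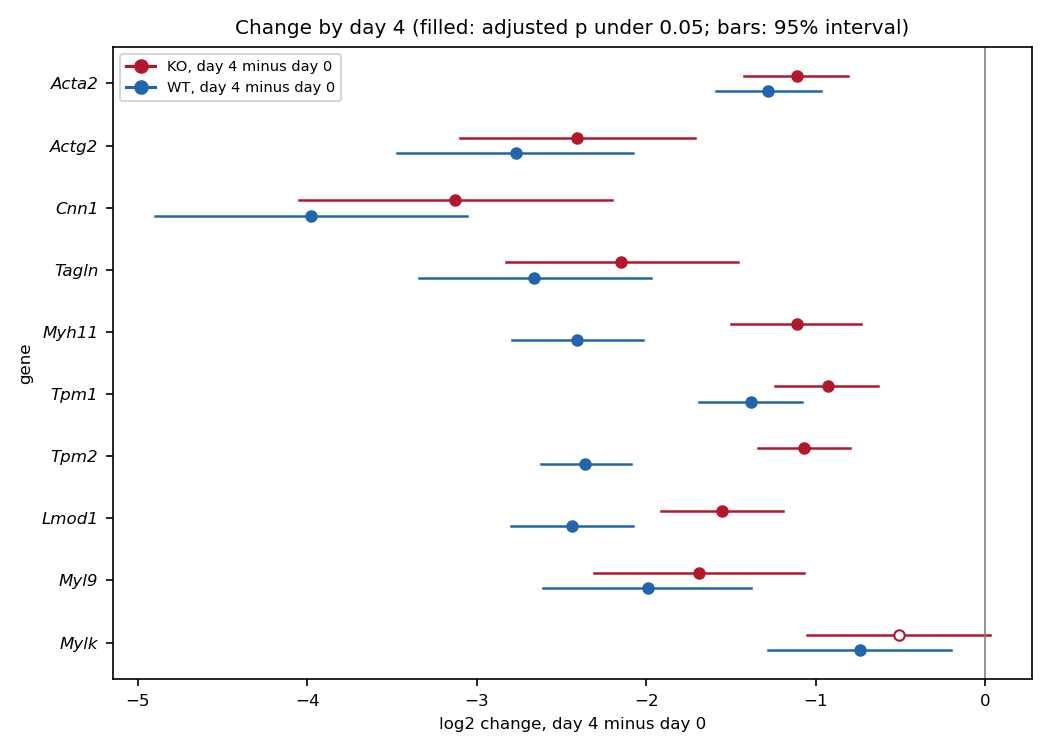
Log2 change from day 0 to day 4 (horizontal axis) of each gene in KO (red) and WT (blue) cells, with the 95% interval of the model as bars and filled points for an adjusted p under 0.05. KO points lie nearer 0 than WT points for all 10 genes, and the intervals are apart for Myh11, Tpm2 and Lmod1.

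Within the day 4 groups the genes shared their highest array but not their lowest. Day 4 array 2 had the highest level of all 10 genes in KO cells and of all 10 in WT cells, which held in both genotypes for 13.6% of all genes (11% for array 1 and 13% for array 3). The lowest level was in array 1 for 7 genes and in array 3 for 3 in KO day 4, and in array 1 for 8 and in array 3 for 2 in WT day 4. The mean of the 10 genes, each centred over the 12 arrays, was -1.14, -0.40 and -1.06 in KO day 4 arrays, against 0.70, 0.72 and 0.68 in KO day 0 arrays. In WT cells it was -1.46, -0.52 and -1.08 at day 4, against 1.19, 1.16 and 1.19 at day 0. The median SD of the genes within a group was 0.43 in KO day 4 and 0.07 in KO day 0 arrays, and 0.43 in WT day 4 and 0.04 in WT day 0 arrays. For all genes it was 0.12, 0.09, 0.13 and 0.09 in the same groups, so the wide day 4 spread of the contractile genes exceeded that of a typical gene.

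Over the 12 arrays, all 45 pairs of the 10 genes had a positive Pearson correlation (median 0.95, lowest 0.53), which the shared day difference contributes to. With group means removed, the 6 day 4 arrays gave 45 positive pairs and a median of 0.90. Array 2, the highest for all 10 genes in both genotypes, contributes to every pair, and pairs of other genes were not examined. The 6 day 0 arrays gave 20 positive pairs and a median of -0.08. Mylk followed the mean of the other 9 genes least closely (r = 0.694, against 0.938 to 0.993 for the others). With both day 4 arrays numbered 2 left out, a choice made after these values were seen, all 10 genes fell in each genotype, with Cnn1 at -3.54 in KO and -4.51 in WT cells. The share of all genes that fell in this fit is not given, so the count has no background beside it. Among the regulators, array 2 of day 4 held the highest Myocd level in both genotypes and the lowest Klf4 level in both (10.27, 10.14 and 10.38 in KO and 10.18, 10.04 and 10.23 in WT arrays), while it was the highest for Srf in WT cells alone and for Tgfb1 in KO cells alone. Mrtfa was also highest in array 2 in both (7.37, 7.73 and 7.45 in KO and 7.05, 7.50 and 7.23 in WT arrays), and Mrtfb in neither (8.14, 8.13 and 8.20 in KO and 8.04, 8.19 and 8.26 in WT arrays). The day 4 SD in KO and WT cells was 0.13 and 0.11 for Myocd and 0.12 and 0.10 for Klf4, near that of a typical gene. For Mrtfa it was 0.19 and 0.22. The share of all genes lowest in array 2 in both genotypes was not computed, and a link to the contractile genes was not tested.

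**Figure D4:**
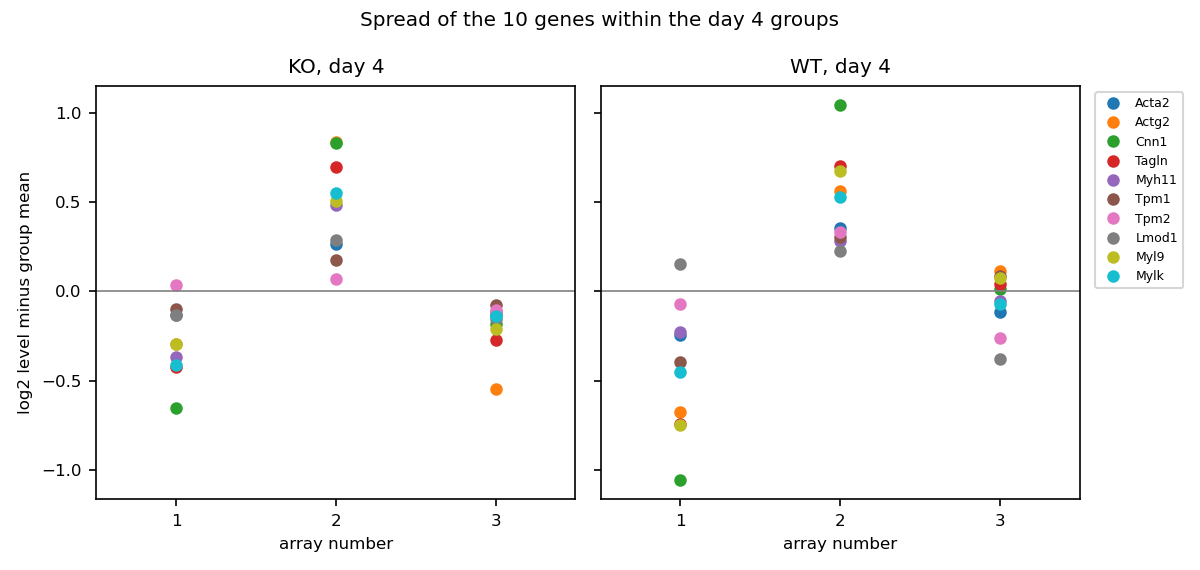
Log2 level minus the mean of its group (vertical axis) for each of the 10 genes in arrays 1, 2 and 3 (horizontal axis) of KO day 4 on the left and WT day 4 on the right. Array 2 lies above 0 for all 10 genes in both panels, and Cnn1 spans the widest range, 1.47 in KO and 2.10 in WT cells.

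Genotype was compared at each day. At day 0, 2 of the 10 genes, Myh11 and Tpm2, were lower in KO cells, against 3.12% of all genes, and 0 were higher, against 2.48%. The estimate was below 0 for all 10 genes (51.3% of all genes), with a median of -0.48, and KO and WT arrays did not overlap for 8 of 10 (16.4% of all genes). Myh11 averaged 7.16 ± 0.08 in KO and 8.11 ± 0.04 in WT cells (SD, n = 3 each), a difference of -0.95 ± 0.18 (SE, adjusted p = 0.00626). Tpm2 averaged 7.95 ± 0.06 in KO and 8.45 ± 0.08 in WT cells (-0.50 ± 0.12, adjusted p = 0.033), a call lost without any 1 of the 6 day 0 arrays (adjusted p = 0.0641 to 0.129).

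The model gives a gene 1 spread over all 4 groups, and for these genes the day 4 arrays widen it. A fit to the day 0 arrays alone called 6 of the 10 lower in KO cells, against 5.9% of all genes in that fit. These were Actg2 (-0.89, adjusted p = 3.38e-05, against 0.161 in the fit to all arrays), Cnn1 (-0.51, adjusted p = 0.000618, against 0.628), Mylk (-0.82, 0.00152, against 0.0823), Myl9 (-0.47, 0.0101, against 0.471), Myh11 (3.14e-05) and Tpm2 (0.00194). Actg2 averaged 10.47 ± 0.06 in KO and 11.36 ± 0.03 in WT cells at day 0, and Cnn1 averaged 10.51 ± 0.02 in KO and 11.02 ± 0.02 in WT cells (SD, n = 3 each), both without overlap. With array weights, 4 of the 10 were lower, against 6.27% of all genes. Acta2, Tagln, Tpm1 and Lmod1 did not pass in either of the first 2 fits. Over all arrays Acta2 was at -0.10 (95% interval -0.41 to 0.20) and Tagln at -0.08 (-0.77 to 0.61). Tpm1 was at -0.21 (-0.51 to 0.10) and Lmod1 at -0.27 (-0.63 to 0.09).

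At day 4, 2 of the 10 genes were higher in KO cells, against 8.34% of all genes, and 0 were lower, against 12.4%. The estimate was above 0 for 7 of 10 (50.4% of all genes), and KO arrays lay above WT arrays without overlap for 2 of 10 (14.3%). Tpm2 averaged 6.88 ± 0.09 in KO and 6.09 ± 0.30 in WT cells (SD, n = 3 each), a difference of 0.79 ± 0.12 (SE, adjusted p = 0.000891). Lmod1 averaged 5.96 ± 0.25 in KO and 5.35 ± 0.33 in WT cells (0.62 ± 0.17, adjusted p = 0.0194). Lmod1 no longer passed on omission of array 3 of WT day 4 (adjusted p = 0.0795) or of array 2 of KO day 4 (0.0731), or in a fit to the day 4 arrays alone (0.0784), where 1 of 10 genes, against 3.37% of all genes, was higher. With array weights 2 were higher and 2 lower, against 8.66% and 13.2% of all genes. Without WT day 4 array 1, Actg2 (-0.86, adjusted p = 0.048) and Mylk (-0.82, adjusted p = 0.026) passed as lower in KO cells, as they did without KO day 4 array 2 (0.0249 and 0.0219). The 8 genes other than Tpm2 and Lmod1 overlapped between genotypes and did not pass, with Cnn1 at 0.34 (95% interval -0.58 to 1.26) and Acta2 at 0.06 (-0.24 to 0.37).

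The change by day 4 was set against genotype through the difference of changes, KO minus WT. It was positive for all 10 genes (49.0% of all genes), with a median of 0.48, and 2 passed, against 2.15% of all genes that passed as higher and 1.81% that passed as lower. The difference of changes equals the genotype difference at day 4 minus that at day 0. Its shared sign is thus not separate from the day 0 result, and genes that move together are not 10 separate observations. Tpm2 differed by 1.29 ± 0.17 (SE, n = 3 per group, adjusted p = 0.0026) and Myh11 by 1.29 ± 0.25 (adjusted p = 0.0153), and both passed in every alternative run. Lmod1 at 0.88 ± 0.23 (adjusted p = 0.0554) lay just outside. With all arrays it passed when dim genes were left out (adjusted p = 0.0455), after quantile normalization (0.0458), with a trended and robust prior (0.0371) and with array weights (0.0297), and it also passed on omission of WT day 4 array 1 (0.0289) or 2 (0.043). For Cnn1 the difference was 0.86 ± 0.60 (95% interval -0.45 to 2.16, adjusted p = 0.493), and for Acta2 0.17 ± 0.20 (-0.27 to 0.60, adjusted p = 0.721), so neither equal nor unequal falls were shown for them.

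**Figure D5:**
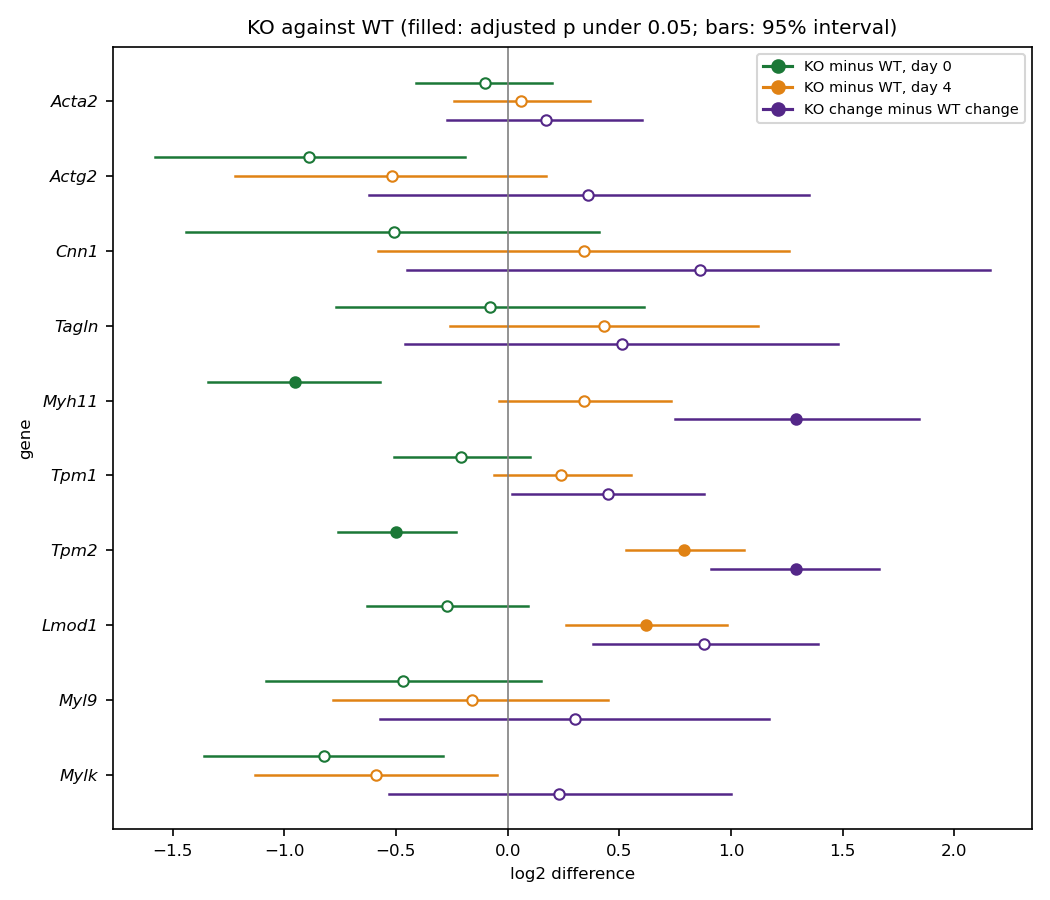
Log2 difference (horizontal axis) of each gene for KO minus WT at day 0 (green), KO minus WT at day 4 (orange) and the KO change minus the WT change (purple), with 95% intervals as bars and filled points for an adjusted p under 0.05. Day 0 points lie left of 0 for all 10 genes and the differences of changes lie right of it, and the 3 comparisons share arrays.

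The regulators of these genes were measured in the same arrays. Srf averaged 7.59 ± 0.09 in KO day 4 and 8.33 ± 0.05 in KO day 0 arrays, and 7.89 ± 0.12 in WT day 4 and 8.73 ± 0.06 in WT day 0 arrays (SD, n = 3 each). Srf fell by 0.74 ± 0.08 in KO cells (SE, adjusted p = 2.94e-05) and fell by 0.84 ± 0.08 in WT cells (adjusted p = 1.33e-05), and KO was lower than WT at day 0 (-0.40, adjusted p = 0.012) and at day 4 (-0.30, adjusted p = 0.0229). Mrtfa, a partner of SRF that responds to actin assembly, fell by 0.66 ± 0.12 in KO cells (adjusted p = 0.00091) and fell by 1.10 ± 0.12 in WT cells (adjusted p = 2.62e-05). Its relative Mrtfb did not pass (-0.13 in KO, adjusted p = 0.237, and -0.15 in WT, adjusted p = 0.193).

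Myocd encodes myocardin, the partner of SRF in smooth and heart muscle. It gave 4.45, 4.61 and 4.37 in KO day 4 arrays, against 4.75, 4.68 and 4.55 in KO day 0 arrays, and its change did not pass (-0.18 ± 0.10, adjusted p = 0.19). In WT cells Myocd gave 4.37, 4.59 and 4.48 at day 4, against 5.57, 5.51 and 5.30 at day 0, and it fell by 0.98 ± 0.10 (SE, n = 3 per group, adjusted p = 1.53e-05). The WT day 0 arrays stood above all others. KO was lower at day 0 (-0.80 ± 0.10, adjusted p = 0.000379), and the difference of changes passed (0.80 ± 0.14, adjusted p = 0.00921). All 10 contractile genes had these signs, and a link to Myocd was not tested. At day 4 KO and WT did not differ in Myocd (adjusted p = 0.991). Its KO and day 4 levels lay under the array medians of 5.22 to 5.32.

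Klf4, a transduced factor and a known repressor of smooth muscle genes, rose by 3.28 ± 0.09 in KO cells (SE, n = 3 per group, adjusted p = 2.92e-10) and rose by 2.94 ± 0.09 in WT cells (adjusted p = 9.02e-10). Whether its probe set also reads the introduced copy was not tested. Tgfb1, the growth factor that induces the myofibroblast state, fell by 0.94 ± 0.15 in KO cells (adjusted p = 0.000482) and fell by 1.22 ± 0.15 in WT cells (adjusted p = 8.87e-05). Of 22 transcription regulators in the list, 3 rose, 8 fell and 11 did not pass in KO cells, where 13.8% of all genes rose and 16.9% fell. In WT cells 4 rose, 9 fell and 9 did not pass, where 11.1% of all genes rose and 11.7% fell. Among them Mef2c, a muscle transcription factor, rose by 1.29 in KO cells, and Gata6, a factor of visceral and vascular smooth muscle, fell by 0.75 there. Both were named by their rank by p in KO cells, which does not show WT cells unchanged.

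Many other smooth muscle and stress fibre genes fell too. Of 29 measured, 19 fell, 1 rose and 9 did not pass in KO cells (median -0.62), and 26 fell, 0 rose and 3 did not pass in WT cells (median -1.01). Among all genes 16.9% fell and 13.8% rose in KO cells, and 11.7% fell and 11.1% rose in WT cells. Pdlim7, an adaptor on actin filaments, fell by 1.40 ± 0.09 in KO cells (SE, n = 3 per group, adjusted p = 5.72e-07) and fell by 1.44 ± 0.09 in WT cells (adjusted p = 6.05e-07). Kcnmb1, the smooth muscle subunit of a calcium-activated potassium channel, fell by 1.60 ± 0.13 in KO and fell by 1.70 ± 0.13 in WT cells (adjusted p = 3.08e-06 and 2.24e-06). Flna (filamin A, -1.26) and Tln1 (talin, -0.64) fell in KO cells, and Tes (a focal adhesion protein, -1.53) and Csrp1 (-1.01) in WT cells. They are given where their p ranked among the smallest of the list, which does not show the other genotype unchanged. The gene that rose in KO cells was Itga1, the collagen-binding integrin alpha-1 chain, at 0.95.

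Genes that set the force of contraction were a smaller list. Of 13 measured, of 18 in the list, 3 rose, 4 fell and 6 did not pass in KO cells, and 2 rose, 8 fell and 3 did not pass in WT cells. The shares of all genes were 13.8% that rose and 16.9% that fell in KO cells, and 11.1% and 11.7% in WT cells. With 13 genes the counts are small, and whether they differ from these shares was not tested. Ppp1r14a, an inhibitor of myosin phosphatase, rose by 0.78 ± 0.13 in KO cells (SE, n = 3 per group, adjusted p = 0.000676) and fell by 0.88 ± 0.13 in WT cells (adjusted p = 0.00036), and the difference of changes was 1.66 ± 0.19 (adjusted p = 0.000992). Cacna1c, the L-type calcium channel, fell by 0.63 in KO and fell by 1.01 in WT cells, and Mrvi1, a target of cGMP kinase, fell by 0.93 in KO and fell by 1.44 in WT cells. The angiotensin receptor gene Agtr1a rose by 1.17 in KO and rose by 1.24 in WT cells (adjusted p = 0.000306 and 0.00026).

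The non-muscle relatives of the contractile genes were measured as well. Of 14, 11 fell, 2 rose and 1 did not pass in KO cells (median -0.44), with the same counts in WT cells (median -0.63). Among all genes 16.9% fell and 13.8% rose in KO cells, and 11.7% fell and 11.1% rose in WT cells. Cnn2, the non-muscle calponin, averaged 10.09 ± 0.23 in KO day 4 and 11.03 ± 0.01 in KO day 0 arrays, and 9.92 ± 0.29 in WT day 4 and 11.33 ± 0.08 in WT day 0 arrays (SD, n = 3 each). Tagln2 changed by -1.06 in KO and -0.88 in WT cells (adjusted p = 1.74e-05 and 8.68e-05). Myh9 changed by -0.28 in KO and -0.90 in WT cells (adjusted p = 0.0323 and 1.4e-05), and Myl6 by -1.03 in KO and -1.09 in WT cells. Myl12b, a regulatory light chain outside muscle, rose by 0.59 ± 0.07 in KO and rose by 0.59 ± 0.07 in WT cells (adjusted p = 4.29e-05 and 5.59e-05). Tmod3, which caps actin filaments, rose by 0.69 in KO and rose by 0.68 in WT cells.

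The sarcomeric relatives of skeletal and heart muscle mostly did not pass. Of 21, 1 rose, 3 fell and 17 did not pass in KO cells (median -0.03), and 1 rose, 2 fell and 18 did not pass in WT cells (median 0). These counts do not exceed the shares of all genes, 13.8% that rose and 16.9% that fell in KO cells, and 11.1% and 11.7% in WT cells. Acta1, skeletal alpha-actin, fell by 1.45 ± 0.21 in KO cells (SE, n = 3 per group, adjusted p = 0.000183) and fell by 2.12 ± 0.21 in WT cells (adjusted p = 1.33e-05). Actc1, cardiac actin, fell by 0.41 in KO and fell by 0.35 in WT cells, and Myl7, an atrial light chain, rose by 0.45 in KO and rose by 1.21 in WT cells.

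Markers of other cell types were followed beside these changes, and their part in them was not tested. By day 4, 13.8% of all genes rose and 16.9% fell in KO cells, and 11.1% and 11.7% in WT cells. For KO against WT, 2.48% of all genes were higher and 3.12% lower at day 0, and 8.34% and 12.4% at day 4. Of 8 pericyte markers, 2 rose, 3 fell and 3 did not pass in KO cells (median -0.01). In WT cells 0 rose, 5 fell and 3 did not pass (median -0.54). Mcam had the lowest change (-1.56 in KO and -2.76 in WT cells). Rgs5 (1.15) and Cspg4 (0.87) rose in KO cells, and Cspg4 fell in WT cells (-0.54). The mean of the 8 pericyte markers, each centred over the 12 arrays, lay between -0.16 and 0.04 in KO day 4 and between 0.00 and 0.02 in KO day 0 arrays. It lay between -0.36 and -0.20 in WT day 4 and between 0.33 and 0.44 in WT day 0 arrays. Of 7 macrophage markers, 6 were lower in KO cells at day 0 (median -1.50) and 6 at day 4 (median -1.63). Their centred mean was between -0.75 and -0.70 in KO day 4 and between -0.85 and -0.68 in KO day 0 arrays, against 0.47 to 1.36 in WT day 4 and 0.57 to 0.71 in WT day 0 arrays. Between genotypes, 2 of 8 pericyte markers were lower in KO cells at day 0 (Mcam -0.83 and Cspg4 -0.82) and 2 were higher at day 4 (Rgs5 0.81 and Cspg4 0.59). Of 6 endothelial markers 1 was lower in KO cells at day 0 (Emcn -1.08) and 0 passed at day 4. Of 6 epithelial markers 2 were lower in KO cells at day 0 and 3 at day 4, and of 6 cardiomyocyte markers 1 was lower at each day. Of 8 skeletal myoblast markers 0 passed at day 0 and 1 was higher at day 4, and of 10 fibroblast markers 3 were higher at day 0, and 2 were higher and 3 lower at day 4. The genotype differences of Myh11, Tpm2 and Lmod1 stand beside these differences. Of 8 skeletal myoblast markers, 0 passed in KO cells by day 4 and 1, Chrna1, fell in WT cells (-0.39). Of 6 cardiomyocyte markers 1 rose in KO and 1 in WT cells, and of 6 endothelial markers 2 fell in KO cells, and 2 fell and 1 rose in WT cells. Of 6 epithelial markers 1 rose and 1 fell in KO cells, and 3 rose and 1 fell in WT cells.

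Fibroblast markers did not move as one. Of 10, 1 rose, 3 fell and 6 did not pass in KO cells, and 2 rose, 4 fell and 4 did not pass in WT cells. Among all genes 13.8% rose and 16.9% fell in KO cells, and 11.1% rose and 11.7% fell in WT cells. Dcn, which encodes the matrix proteoglycan decorin, rose by 0.99 ± 0.11 in KO and rose by 1.68 ± 0.11 in WT cells (SE, n = 3 per group, adjusted p = 2.67e-05 and 6.62e-07), and Thy1 fell by 0.45 in KO and fell by 1.03 in WT cells.

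The genes whose pattern over the 12 arrays was most like the mean of the 10 contractile genes were Pea15a (r = 0.997), Cnn2 (0.996), Cdh3 (0.994), Des (0.994), Dysf (0.993), Ccn4 (0.992), Esyt2 (0.992), Ankrd50 (0.991), Coq10b (0.991) and Denn2b (0.99). Des encodes desmin, the intermediate filament of muscle, and Ccn4 a secreted matricellular protein. The changes of these 10 genes by day 4 ran between -1.90 and -0.54 in KO cells and between -2.21 and -0.72 in WT cells. These correlations are descriptions over arrays that share the day difference.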

How the data were processed

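Total RNA of 12 samples was biotin-labelled, per the labels' protocols, and read on Affymetrix arrays of 1 colour. The authors deposited 1 log2 level per probe set and array, from 1.33 to 13.35 (log2 was inferred from this range). Affymetrix Expression Console is named in the submitters' processing notes. How background was corrected and levels normalized and summarised is not given in the sources used here. Arrays have no depth, so precision rests on how many there are.

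Of 41345 probe sets, 23521 matched 1 gene symbol in the platform's table, 1814 several and 16010 none. Per gene, the probe set of highest 12-array mean was kept (22180 genes), with no filter on low levels. limma 3.58.1 in R 4.3.3 fitted 4 group means to all arrays (8 residual degrees of freedom, 4.56 prior), with 2-sided moderated tests and Benjamini-Hochberg adjustment over all genes. A gene passed at an adjusted p under 0.05. The fit was tested on simulated data.

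The members, lists and naming rule were chosen with earlier results of these data known. All 10 members, Srf, Myocd, Mrtfa, Mrtfb, Klf4 and Tgfb1 are named. For each other list, a rule picked up to 4 passing genes of smallest p in each day comparison (all where 5 or fewer passed, 2 where none did). This rule was extended to the 3 genotype comparisons, and the CArG form with 1 G or C was added, after values or promoters were seen. Not every gene that the rule picked is named in the text. In the lists, 1 stress fibre gene, 5 contraction regulators and 1 epithelial marker were not analysed here. Genes of like pattern were ranked by Pearson correlation with the mean of the centred members, leaving out predicted genes, clones, small RNAs, pseudogenes and receptors of smell. Same-numbered arrays did not deviate together in every pair of groups (correlations from -0.06 to 0.182), so they were not treated as pairs. The highest values were between KO day 4 and WT day 4, at 0.182 for array 2 and 0.116 for array 3, with -0.013 for array 1. Whether same-numbered day 4 arrays were prepared together is not stated in the labels. Alternatives covered normalization, low levels, priors, weights, blocking and omitted arrays. The stretches of 2 of the 7 promoters are not reported here.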

Additional observations from a re-analysis of the deposited data

Results flagged for a closer look

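The difference of day 4 changes, KO minus WT, passed for 2 of the contractile genes, Myh11 (1.29) and Tpm2 (1.29), which is what marked them for a closer look. Both had a smaller fall in KO cells and a lower KO level at day 0. Among the regulators and relatives, the same test marked Ppp1r14a (1.66), Itga1 (1.48), Tes (0.83), Myocd (0.80), Lpp (0.65), Myh9 (0.62), Csrp1 (0.41) and, with the opposite sign, Myl7 (-0.76). Among markers of other cells it marked Cspg4 (1.41), Rgs5 (0.83) and Mcam (1.2) of pericytes, Emcn (1.36) of endothelium, and Thy1 (0.58), Dcn (-0.70) and Lum (-1.50) of fibroblasts. Groups of 3 arrays are too small for a test of single outlying arrays.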

How the results depend on the processing

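The falls by day 4 kept their direction in every alternative run, and 9 of 10 genes in KO cells and 9 in WT cells, all but Mylk, kept their call. Without 1 array at a time, 9 to 10 genes passed in KO cells and 9 to 10 in WT cells by day 4, 1 to 4 for KO against WT at day 0, 1 to 4 at day 4, and 2 to 3 for the difference of changes. For KO against WT at day 0, where 2 genes passed, a fit to the compared groups alone gave 6, array weights 4, the omission of both day 4 arrays numbered 2 (chosen after seeing the data) 4, and a 2-fold minimum 0. At day 4, where 2 passed, the compared groups alone gave 1, array weights 4 (2 of them lower, Actg2 and Mylk) and a 2-fold minimum 0. With the replicate number as a block, 9, 10, 2, 2 and 3 genes passed in the 5 comparisons, and Lmod1 was the gene added in the difference of changes (adjusted p = 0.0329). The share of all genes is not given for the block or for fits with omitted arrays, and it moves with the fit. At day 0, 3.12% of all genes were lower in KO cells without weights, 5.9% in the compared groups alone and 6.27% with array weights. A changed count is thus not a result about the contractile genes alone. Of 990 values of single genes under alternatives, 28 gained and 20 lost a call, and none that passed in either fit changed sign, while 10 that passed in neither did. The deposited levels carry no detection calls, so low levels such as those of Mylk could not be set against background.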
